A study of Mus musculus with 24 samples.

Results

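The genes described here are 9 genes by which microglia are commonly recognised, namely *Cx3cr1*, *P2ry12*, *Tmem119*, *Csf1r*, *C1qa*, *C1qb*, *C1qc*, *Aif1* and *Trem2*. They were chosen by symbol, and all 9 were found among the 15456 genes of the table. RNA from the medial prefrontal cortex (mPFC) of 24 male BALB/c OlaHsd mice, sampled in postnatal week 11, was sequenced with 1 library per mouse and 6 mice in each of 4 groups. The control group received PBS. The duloxetine group received this antidepressant, a blocker of serotonin and norepinephrine reuptake, by injection into the abdomen every day. The *R. flavefaciens* group was gavaged with this living gut bacterium, daily over the first days and then 2 times per week, and the combined group received both the bacterium and duloxetine. The values are normalized counts, that is, read counts of a gene divided by 1 size factor per mouse. Recovered reads per mouse ranged from 12811413 to 15607343, with group medians of 13591497 in control mice, 14536037 with duloxetine, 13943370 with *R. flavefaciens* and 14621656 with both. The control mice were thus the shallowest by median, and the part of depth in the differences given here was not tested.

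Microglia are the resident macrophages of the brain. They survey the tissue with motile processes, clear debris and synapses, and depend on a small set of receptors for survival and guidance. *Csf1r* is the receptor for the growth factors Csf1 and Il34 that keep microglia alive, *Cx3cr1* binds the neuronal chemokine fractalkine, *P2ry12* senses nucleotides released from damaged or active cells, and *Trem2* binds lipids and lipoproteins and signals through the adaptor Tyrobp. *C1qa*, *C1qb* and *C1qc* encode the chains of C1q, the recognition molecule that starts the classical complement pathway and tags synapses for removal. *Tmem119* encodes a surface protein used to tell microglia from other macrophages, and *Aif1* encodes Iba1, the cytoplasmic protein by which microglia are stained. Apart from *Tmem119* and *P2ry12*, these genes are also used by macrophages at the borders of the brain.

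On GRCm38, the build of the positions in the table, *Csf1r* (ENSMUSG00000024621.15) lies on the plus strand of chromosome 18 from 61105572 to 61132149. In the GENCODE vM21 annotation 873 exon bases of *Csf1r* are shared with *Hmgxb3* on the opposite strand, 78 exon bases of *Cx3cr1* with the antisense gene *Gm33858*, and 9 exon bases of *P2ry12* with *Med12l*. Whether the counting used strand is not given in the sources used here, so reads in those stretches cannot be assigned with certainty. *Hmgxb3* was lower than control by a log2 fold change of -0.08 with *R. flavefaciens* and -0.20 with both treatments (limma, adjusted p = 0.534 and 0.166), the opposite direction to *Csf1r*.

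The C1q genes lie side by side on the minus strand of chromosome 4. *C1qb* (ENSMUSG00000036905.8) spans 136880129 to 136886187, *C1qc* (ENSMUSG00000036896.5) spans 136889804 to 136893065 and *C1qa* (ENSMUSG00000036887.5) spans 136895917 to 136898803. *Cx3cr1* (ENSMUSG00000052336.7) lies on the minus strand of chromosome 9 from 119901616 to 120069879, *P2ry12* (ENSMUSG00000036353.13) on the minus strand of chromosome 3 from 59216272 to 59262871 and *Tmem119* (ENSMUSG00000054675.5) on the minus strand of chromosome 5 from 113793729 to 113800516. *Aif1* (ENSMUSG00000024397.14) lies on the minus strand of chromosome 17 from 35170991 to 35176068, and *Trem2* (ENSMUSG00000023992.14) on the plus strand of the same chromosome from 48346401 to 48354147.

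RefSeq gave a promoter on GRCm38.p6 for 6 of the 9 genes. In the 250 bases before the start site, the letters GAGGAA, the core of sites bound by the macrophage lineage factor PU.1, were found on either strand in 4 of these 6, *C1qb*, *C1qc*, *Trem2* and *Aif1*. Over 32851 promoters of the same length, 23.3 percent held them. The motif began 30 bases before the start site in *C1qb*, 193 in *C1qc*, 40 in *Trem2* and 7 in *Aif1*. A match of these letters is a description and not a binding site. The promoters of *C1qb* and *Trem2*, which varied together with most of the other genes between mice, and of *Aif1*, which did so least, read as follows, with GAGGAA or its reverse complement TTCCTC in capitals.
C1qb, chr4:136886201-136886450, minus strand: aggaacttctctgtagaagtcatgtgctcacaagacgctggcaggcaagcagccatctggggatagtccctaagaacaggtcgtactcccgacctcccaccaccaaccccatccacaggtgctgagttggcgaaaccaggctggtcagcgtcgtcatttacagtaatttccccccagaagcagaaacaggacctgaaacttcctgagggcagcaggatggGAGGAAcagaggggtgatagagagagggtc
Trem2, chr17:48346151-48346400, plus strand: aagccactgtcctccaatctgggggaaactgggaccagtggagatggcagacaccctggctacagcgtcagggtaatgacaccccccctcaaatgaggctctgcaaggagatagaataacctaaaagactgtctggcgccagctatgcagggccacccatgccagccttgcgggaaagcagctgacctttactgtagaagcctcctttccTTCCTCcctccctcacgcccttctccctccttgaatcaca
Aif1, chr17:35176053-35176302, minus strand: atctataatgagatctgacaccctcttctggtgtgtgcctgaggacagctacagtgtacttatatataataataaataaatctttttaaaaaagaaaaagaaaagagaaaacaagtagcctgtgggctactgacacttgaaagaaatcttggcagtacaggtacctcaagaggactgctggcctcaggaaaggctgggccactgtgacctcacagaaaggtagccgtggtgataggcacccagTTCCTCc

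All 9 genes were measured well above the minimum mean of 10 normalized counts. Per kilobase of exon, *C1qa* had the highest level, with 521 ± 76.7 normalized counts per kb (SD, n = 24 mice), against a median of 63.4 over the genes tested. It was followed by *C1qb* with 288 ± 49.5, *Csf1r* with 244.9 ± 24 and *P2ry12* with 200.1 ± 26.3 normalized counts per kb (SD, n = 24 for each). *C1qc*, *Cx3cr1* and *Tmem119* had nearly the same level, with 158, 157 and 156 normalized counts per kb, gaps that were far smaller than their SDs of 27.9, 18.3 and 17.4. Lowest were *Aif1*, with 47.8 ± 8.30, and *Trem2*, with 26.4 ± 4.26 normalized counts per kb (SD, n = 24 for each). The gap between *C1qb* and *Csf1r* was smaller than the SD of *C1qb* between mice, but *C1qb* had the higher mean in each of the 4 groups. In each of the 4 groups *C1qa* came first and *Trem2* last. The levels of the C1q chains differed although they are built into the same protein in equal numbers, and a level per kb rests on the annotated exon length.

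The first question was whether the microglia genes differed between treated and control mice. At an adjusted p-value under 0.05 from limma, 0 of the 9 genes were called in any of the 8 comparisons. In the comparisons with control this stands beside 0 percent of the 14974 genes tested for duloxetine, 0.0267 percent for *R. flavefaciens* and 0.1 percent for the combined treatment. Without adjustment, 4, 5 and 7 of the 9 genes were higher than control at p under 0.05 in these comparisons, against 2.2, 8.86 and 8.08 percent of all genes tested. Counting any size of difference, 8 of 9 genes were higher in the duloxetine group and all 9 in both groups given the bacterium, where 49, 50.8 and 50.2 percent of all genes were higher. The median log2 fold change of the 9 genes was 0.19 for duloxetine, 0.23 for *R. flavefaciens* and 0.27 for the combined treatment, against medians of -0.0018, 0.0031 and 0.00072 over all genes tested. These comparisons share the 6 control mice, and since the 9 genes vary together between mice, they are not 9 independent measurements. In RNA from whole tissue, more cells of a type and more RNA per cell cannot be told apart.

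**Figure D1:**
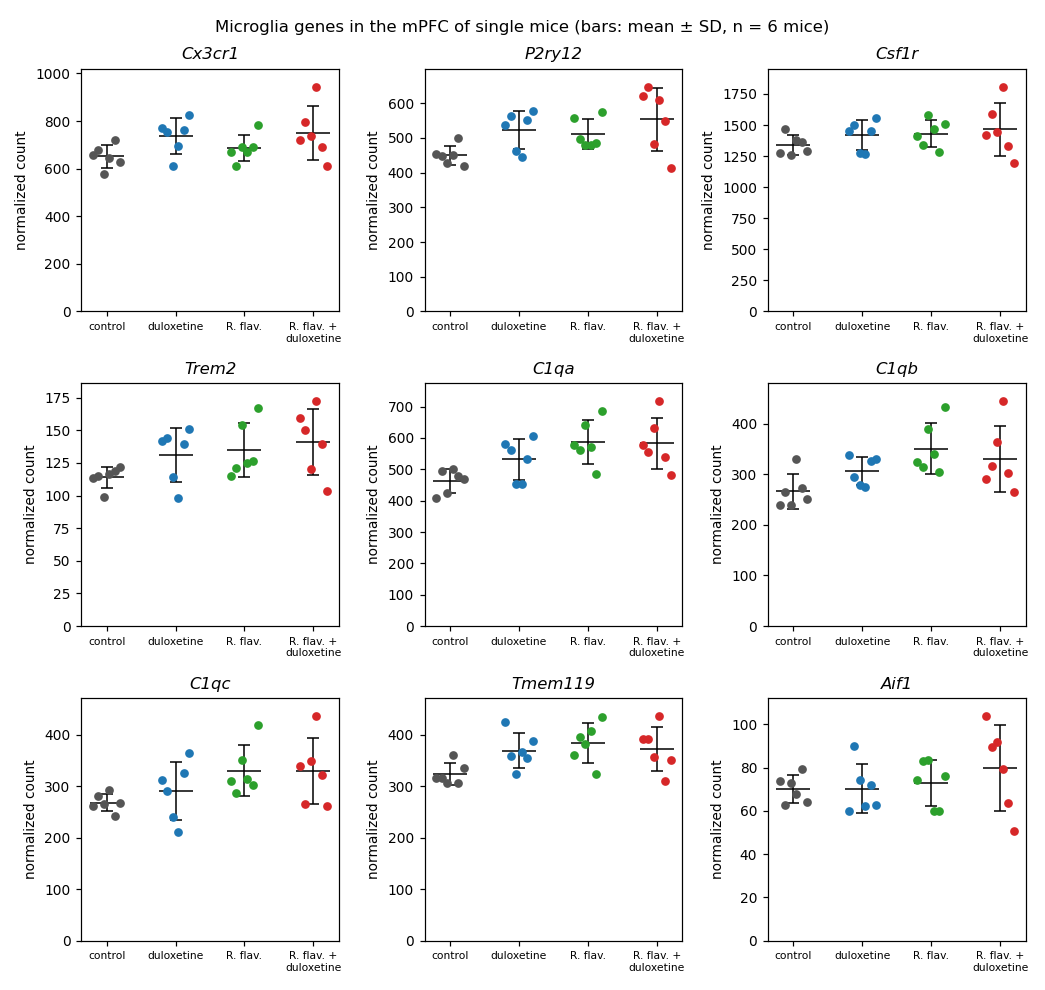
Normalized counts (vertical axes, starting at 0) of the 9 microglia genes in each of 24 mice, by treatment group (horizontal axes). Each point is a mouse, and bars give the mean ± SD of 6 mice. Control mice lie close together, *C1qa* and *C1qb* are higher in most *R. flavefaciens* mice, and every treated group overlaps the control group for every gene.

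For *R. flavefaciens* against control, the C1q chains had the 3 largest log2 fold changes of the 9 genes, and for the combined treatment *C1qa* and *C1qb* had the largest. For duloxetine alone it was *P2ry12*. *C1qa* had 409 normalized counts in the lowest, 475 in the median and 502 in the highest control mouse. In the *R. flavefaciens* group it had 485, 574 and 687, and in the combined group 483, 566 and 717. Of the 6 mice in each of these groups, 5 lay above every control mouse, and the remaining one fell within the control range. The log2 fold change of *C1qa* was 0.34 for *R. flavefaciens* (standard error 0.091, limma adjusted p = 0.0748, exact permutation p = 0.00649) and 0.33 for the combined treatment (standard error 0.091, limma adjusted p = 0.112, exact permutation p = 0.00649). Exact permutation tests here are two-sided over all groupings of 12 mice into 6 and 6, and the smallest p they can give is 0.00216.

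*C1qb* had 239, 258 and 329.8 normalized counts in the lowest, median and highest control mouse. In the *R. flavefaciens* group it had 304, 332 and 432, and in the combined group 265, 309.5 and 444. Above every control mouse were 3 of the 6 *R. flavefaciens* mice and 2 of the 6 combined mice, so the groups overlapped. The log2 fold change was 0.39 for *R. flavefaciens* (standard error 0.11, limma adjusted p = 0.073, exact permutation p = 0.00866), which had the smallest adjusted p-value of the 9 genes in any comparison. For the combined treatment it was 0.30 (standard error 0.11, limma adjusted p = 0.174, exact permutation p = 0.039).

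*C1qc* ran from 243 to 292 normalized counts in control mice, from 286 to 419 in *R. flavefaciens* and from 261 to 437 in combined mice, with medians of 267, 312 and 330.2. Its log2 fold changes were 0.29 and 0.27 (standard error 0.12 for both, limma adjusted p = 0.180 and 0.254, exact permutation p = 0.00433 and 0.0433). The first of these exact p-values, which are not adjusted, was the smallest of the 9 genes. Here 5 of 6 *R. flavefaciens* mice and 4 of 6 combined mice lay above every control mouse. With duloxetine alone the C1q genes had log2 fold changes of 0.19 for *C1qa*, 0.21 for *C1qb* and 0.10 for *C1qc*, all with an adjusted p of 0.9996 from limma, and the groups overlapped.

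The receptors had smaller log2 fold changes than the C1q chains for *R. flavefaciens*, but for the combined treatment *P2ry12* and *Trem2* were level with *C1qc*. *P2ry12* had 420, 449 and 499 normalized counts in the lowest, median and highest control mouse. It had 445, 544 and 577 in the duloxetine group, 478, 490.4 and 575 in the *R. flavefaciens* group and 415, 578 and 648 in the combined group. The lowest of all 24 values was thus in the combined group, as was the highest, and this group spanned the control range. The log2 fold change of *P2ry12* was 0.21 for duloxetine, 0.18 for *R. flavefaciens* and 0.28 for the combined treatment (standard error 0.088 for each, limma adjusted p = 0.9996, 0.249 and 0.133). Its exact permutation p-values were 0.0238, 0.0108 and 0.0346.

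*Cx3cr1* had medians of 651 normalized counts in control mice, 758 with duloxetine, 681 with *R. flavefaciens* and 729 with both. Of the 9 genes, it was the one with the smallest p-value for duloxetine averaged over the bacterium, at 0.15 on the log2 scale (standard error 0.058, limma adjusted p = 0.224). For *R. flavefaciens* alone it was only 0.07 (standard error 0.082), with 1 of 6 mice above every control mouse. *Csf1r* had the highest counts, with a mean of 1341 ± 79.9 normalized counts in the control (SD, n = 6), 1418 ± 120.1 with duloxetine, 1431 ± 109.8 with *R. flavefaciens* and 1465 ± 213 with both (SD, n = 6 for each). Its log2 fold changes of 0.08, 0.09 and 0.12 had 95 percent intervals that included 0 and reached at most 0.27. *Trem2* had log2 fold changes of 0.19, 0.23 and 0.28 (standard error 0.12 for each, limma adjusted p = 0.9996, 0.290 and 0.237). Its medians were 116 normalized counts in control mice, 141 with duloxetine, 126 with *R. flavefaciens* and 145 with both.

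*Tmem119* had 306, 316 and 361 normalized counts in the lowest, median and highest control mouse and 323, 389 and 433 in the *R. flavefaciens* group. Of the 6 *R. flavefaciens* mice, 5 were above every control mouse. The log2 fold change was 0.24 for *R. flavefaciens*, 0.19 for duloxetine and 0.20 for the combined treatment (standard error 0.078 for each, limma adjusted p = 0.104, 0.9996 and 0.217, exact permutation p = 0.00866, 0.0173 and 0.0368). It had the smallest limma p-value of the 9 genes for the interaction, that is, for the difference between the effect of the bacterium with and without duloxetine, with a log2 value of -0.23 (standard error 0.11, limma adjusted p = 0.647). *Aif1* had the smallest difference of the 9 genes for duloxetine and for *R. flavefaciens*, and *Csf1r* for the combined treatment. Its medians were 70.4 normalized counts in control mice, 67.3 with duloxetine, 75.3 with *R. flavefaciens* and 84.5 with both, and its log2 fold changes were -0.01, 0.05 and 0.15 (standard error 0.14 for each).

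**Figure D2:**
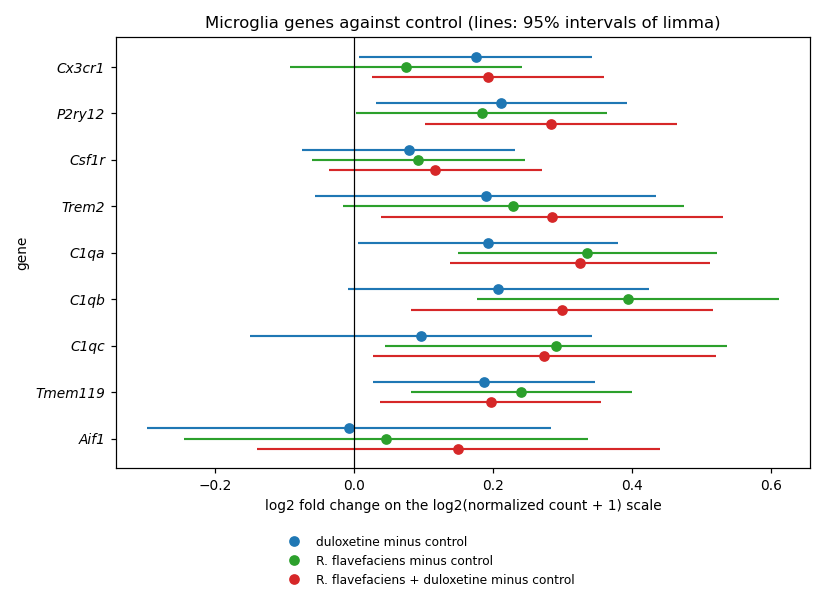
Log2 fold changes of the 9 microglia genes (rows) against control on the log2(normalized count + 1) scale (horizontal axis), for duloxetine (blue), *R. flavefaciens* (green) and both (red). Points are limma estimates and lines 95 percent intervals, which are not adjusted for the number of genes tested. The largest estimates are those of *C1qb* and *C1qa* for *R. flavefaciens*, at 0.39 and 0.34, and the intervals of *Aif1* and *Csf1r* include 0 in all 3 comparisons.

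In the median over the 9 genes, the combined group differed less from either single treatment than from control. *Aif1* was an exception, with 0.16 against duloxetine alone and 0.15 against control on the log2 scale. The *R. flavefaciens* and duloxetine groups were not compared directly. Adding the bacterium to duloxetine gave a median log2 fold change over the 9 genes of 0.09, and adding duloxetine to the bacterium gave 0.02, with 0 genes called beside 0 and 2.23 percent of all genes tested. Leaving out 1 mouse moved the first median to between 0.03 (without duloxetine mouse 6_1) and 0.15 (without combined mouse 12_4), and the second to between -0.04 (without combined mouse 12_2) and 0.08 (without 12_4). All 9 genes were higher with the bacterium added and 5 with duloxetine added, beside medians of -0.0031 and 0.0019 over all genes tested. None of the 9 genes had an unadjusted p under 0.05 in either comparison by limma. *C1qa*, for example, differed by -0.01 between the combined and the *R. flavefaciens* group, with a 95 percent interval from -0.20 to 0.18. Averaged over duloxetine, *R. flavefaciens* gave a median of 0.13 and all 9 genes were higher, 4 of them at an unadjusted p under 0.05 (7.68 percent of all genes), with 0 called beside 0.0267 percent of all genes. Duloxetine averaged over the bacterium gave a median of 0.07 (0.05 without *R. flavefaciens* mouse 9_2 and 0.11 without combined mouse 12_4), and all 9 genes were higher. Of these, 2, *Cx3cr1* and *P2ry12*, had an unadjusted p under 0.05 (7.44 percent of all genes), with 0 called beside 1.03 percent of all genes. For the interaction, 8 of the 9 values were negative, with a median of -0.11 (-0.20 without duloxetine mouse 6_1 and -0.05 without combined mouse 12_4), and 0 were called beside 0 percent of all genes.

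The call depended on the test for *C1qa* and *C1qb*. For *R. flavefaciens* against control, each was called in 4 of 34 other fits by limma, DESeq2 or edgeR. Over these fits the log2 fold change ranged from 0.18 to 0.39 for *C1qa* and from 0.24 to 0.46 for *C1qb*. The adjusted p-values in these fits reached 0.261 and 0.233. DESeq2 on the recovered reads, the tool the study used, called both for *R. flavefaciens* against control, where it called 3.26 percent of all genes. It called *C1qa* for the combined treatment against control, beside 1.45 percent of all genes, and for *R. flavefaciens* averaged over duloxetine, beside 2.95 percent. The smallest adjusted p-values of DESeq2 in these comparisons were 0.0252, 0.0385 and 0.0225. EdgeR on the same reads called 0 of the 9 genes in every comparison. At a threshold of 0.1 limma called *C1qa* and *C1qb* for *R. flavefaciens* against control, beside 3.87 percent of all genes, and *C1qa* for the average over duloxetine, beside 1.34 percent. With mice that share the first number of their label as a random block it called both at 0.05 against control, beside 1.48 percent. Each first number occurs in only 1 group, so this block cannot separate label number from treatment. The correlation within blocks was -0.045, and a negative value narrows the standard errors between groups. In the limma fit, leaving out single mice brought further calls, of these genes and of all genes. Without *R. flavefaciens* mouse 8_3, *C1qa* and *C1qb* were called against control (smallest adjusted p = 0.0408) beside 2.85 percent of all genes, and without mouse 9_2 *Tmem119* was called as well (smallest adjusted p = 0.0342) beside 4.11 percent. Without combined mouse 12_4, the lowest of its group for most of the 9 genes, *P2ry12* and *C1qa* were called for the combined treatment (smallest adjusted p = 0.0252) beside 1.03 percent.

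In the median, the 9 genes varied less between control mice than within each treated group. The coefficient of variation (CV, SD over mean) between control mice ranged over the 9 genes from 5.96 to 12.8 percent, with a median of 7.12 percent. Its median was 10.5 percent with duloxetine, 11.9 percent with *R. flavefaciens* and 16.3 percent with both, against 8.02, 8.86, 12.4 and 10.6 percent over all genes tested in the control, duloxetine, *R. flavefaciens* and combined groups. In the combined group the CV was above that of control for all 9 genes, and for 68.2 percent of all genes tested. Combined mouse 12_2 had the highest count in its group for 7 of the 9 genes, and mouse 12_4 the lowest for 8. Summed over the 9 genes, mouse 12_2 had 5650 normalized counts and mouse 12_4 3733, against 3676 to 4146 in control mice. Without both mice the median CV of the combined group was 10.5 percent, against 9.65 percent over all genes, and 6 of the 9 genes and 60.5 percent of all genes were above control, but as these mice are the extremes of the group, a lower CV follows from their choice. In the *R. flavefaciens* group mouse 9_3 had the highest count for 7 of the 9 genes and a sum of 5087.

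The second question was whether the 9 genes varied together in the same mice. After the group means were taken off, all 36 pairs had a positive Pearson r over the 24 mice, from 0.15 to 0.88, with a median of 0.66. At an adjusted p under 0.05 by permutation within groups, adjusted over the 36 pairs, 25 pairs passed by Pearson's r and 24 by Spearman's rho. The C1q genes were among the closest, with r = 0.88 and rho = 0.89 for *C1qa* and *C1qb* (adjusted permutation p = 0.00012 and 0.00024) and r = 0.84 and rho = 0.84 for *C1qa* and *C1qc* (adjusted permutation p = 0.000216 and 0.000288). *C1qa* and *Csf1r*, which lie on different chromosomes, had r = 0.87 and rho = 0.84 (adjusted permutation p = 0.00012 and 0.00024), and *Cx3cr1* and *Csf1r* r = 0.85 and rho = 0.81 (adjusted permutation p = 0.00018 and 0.00027). Without the 2 mice farthest from the median, these r were 0.85, 0.82, 0.82 and 0.73. None of the 8 pairs with *Aif1* passed, and their median r was 0.28, against medians from 0.54 to 0.75 for the pairs of each other gene. Of the 28 pairs without *Aif1*, 25 passed. *Aif1* also had the lowest normalized counts of the 9 genes, with a mean of 73.3, and the part of counting error in its r was not tested.

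**Figure D3:**
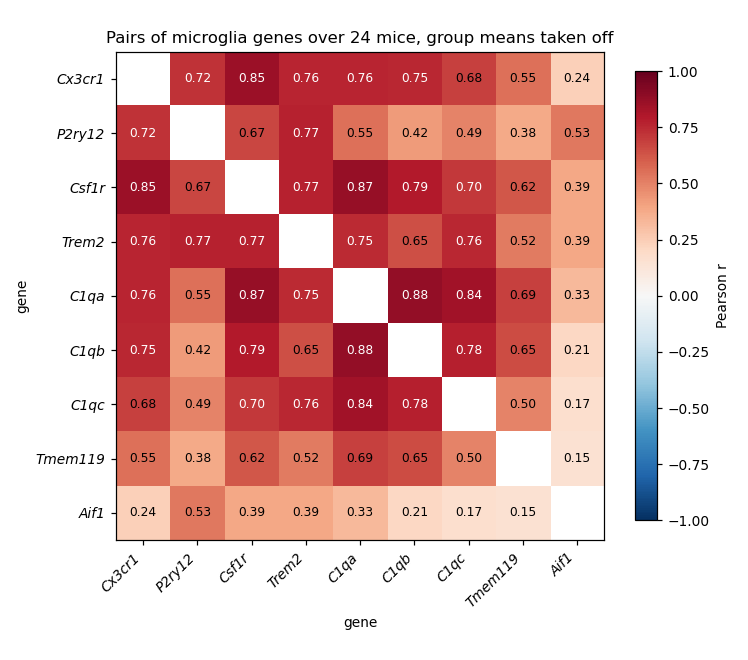
Pearson r between each pair of the 9 microglia genes (rows and columns) over 24 mice, with group means taken off log2 values. Red marks positive r. All pairs are positive, from 0.15 for *Tmem119* and *Aif1* to 0.88 for *C1qa* and *C1qb*, and the row of *Aif1* is the palest.

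Without the 2 mice farthest from the median of the first gene of each pair, the median r was 0.57 and 35 of the 36 pairs were positive. Within the control group the median r was 0.36, with 25 pairs positive. It was 0.80 with duloxetine, 0.57 with *R. flavefaciens* and 0.66 with both, each from 6 mice and given without a test.

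None of the 10 genes that followed the 9 most closely between mice was on the lists of microglia genes. Likeness was measured as Pearson's r with the mean of the 9 standardized genes over 24 mice, with group means taken off, for 14965 other genes. The 10 most alike were *Mlc1* (r = 0.93), *Mfge8* (0.92), *Gpr37l1* (0.92), *Aldoc* (0.91), *Cmtm6* (0.91), *mt-Nd3* (0.91), *Cst3* (0.91), *Ttyh1* (0.90), *Acsbg1* (0.90) and *Mgll* (0.89). *Mlc1*, *Gpr37l1* and *Aldoc* are genes of astrocytes, the star-shaped support cells of the brain, *Cst3* is abundant in microglia and astrocytes, and *mt-Nd3* is a gene of the mitochondrial genome. The median r over all other genes was 0.015. These values share the libraries and the size factors of the same mice, and are given as a description. Taken singly, *Csf1r* was closest to *Gpr37l1* (r = 0.94), *C1qa* to *Mfge8* (0.92), *C1qb* to *Elovl5* (0.91), *Cx3cr1* to *Sparcl1* (0.91), *C1qc* to *Cxcl14* (0.87), *P2ry12* to *Fabp5* (0.85), *Tmem119* to *Sardh* (0.79) and *Aif1* to *Abcb8* (0.77). Only for *Trem2* was the closest gene, *Vsir* (0.82), from the list of other microglia genes.

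**Figure D4:**
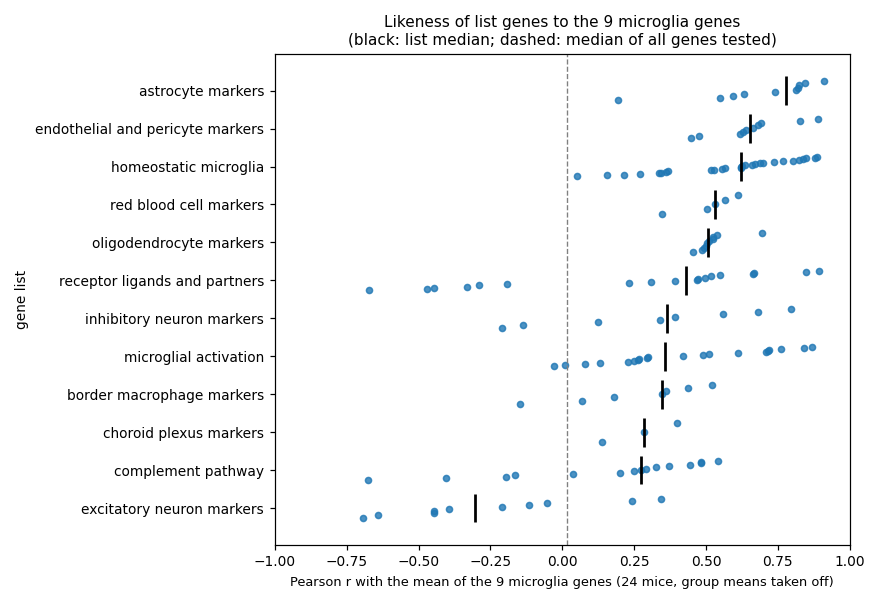
Pearson r of single genes (points) with the mean of the 9 microglia genes over 24 mice, group means taken off (horizontal axis), by gene list (rows, ordered by median). Black bars give list medians and the dashed line the median of all genes tested, 0.015. Astrocyte markers have the highest median, 0.78, and excitatory neuron markers the only negative one, -0.30.

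By list, the median r was 0.78 for 10 astrocyte markers, 0.65 for 10 endothelial and pericyte markers, 0.62 for 28 other genes of resting microglia, 0.53 for 5 red blood cell markers, 0.51 for 10 oligodendrocyte markers, 0.37 for 8 inhibitory neuron markers and -0.30 for 10 excitatory neuron markers. The lists with a positive median thus included neuronal and non-neuronal cells. In combined mouse 12_2 the summed markers of astrocytes (93620 normalized counts), oligodendrocytes (58014) and endothelial cells and pericytes (7678) were all the highest of its group, and in mouse 12_4 all were the lowest (67029, 13553 and 5162). The summed excitatory neuron markers were also highest in mouse 12_2, with 116037 normalized counts, and were 108940 in mouse 12_4. Of the sum in mouse 12_2, 63155.5 came from *Camk2a* alone, and not every marker of the list followed the sum. *Fezf2* was lowest of its group in mouse 12_2, with 590 normalized counts, and highest in mouse 12_4, with 835. The part of tissue composition in the differences between groups was not tested.

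Other genes by which resting microglia are known were also mostly higher than control. Of 28 measured, 27 were higher than control with *R. flavefaciens* and 28 with both treatments (50.8 and 50.2 percent of all genes). At an unadjusted p under 0.05, 6 and 13 of them were higher (8.86 and 8.08 percent of all genes), and 0 were called. Their median log2 fold changes were 0.13 and 0.21, below the 0.23 and 0.27 of the 9 genes. *Rgs10*, a regulator of G protein signals, had log2 fold changes of 0.30 and 0.20 (standard error 0.096 for both, limma adjusted p = 0.103 and 0.288). *Spi1*, which encodes PU.1, had 0.35 and 0.21 (standard error 0.18 for both, limma adjusted p = 0.289 and 0.576). With duloxetine alone, 21 of the 28 genes were higher than control, with a median log2 fold change of 0.11 and 0 called. At an unadjusted p under 0.05 by limma, 4 of them were higher, beside 2.2 percent of all genes.

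The single list gene that passed the threshold was *Ptprc*, which encodes CD45, a phosphatase on the surface of all white blood cells that is low on resting microglia. Its counts were 25.8 to 37.0 in control mice, 32.8 to 52.9 in duloxetine mice, 18.8 to 43.4 in *R. flavefaciens* mice and 35.0 to 59.1 in combined mice. The means of both groups given duloxetine were above those of the other 2 groups, and the ranges overlapped. Against control its log2 fold change was 0.05 for *R. flavefaciens* and 0.69 for the combined treatment (limma, adjusted p = 0.902 and 0.0849). *Ptprc* rose by a log2 fold change of 0.64 when duloxetine was added to the bacterium (limma, adjusted p = 0.0495) and by 0.56 for duloxetine averaged over the bacterium (limma, adjusted p = 0.0258). Of all genes tested, 2.23 and 1.03 percent were called in these 2 comparisons. Over 33 other settings the adjusted p-value of *Ptprc* for the first of these lay between 0.0248 and 0.175, with 11 under the threshold, and the call was lost in 18 of the 24 fits that left out a mouse. For the averaged comparison it ranged from 0.00355 to 0.060 over 32 settings and was lost in 4, without control mouse 2_1 or 3_1, duloxetine mouse 5_3 or combined mouse 11_3. The r of *Ptprc* with the mean of the 9 genes was 0.15, below all but 1 gene of its list. Of 10 blood leukocyte markers, *Ly6c2* alone was measured here, at a mean of 32.7 normalized counts, and differed by 0.36 on the log2 scale for the combined treatment (standard error 0.21, limma adjusted p = 0.370), and the part of blood leukocytes in the *Ptprc* counts was not tested.

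The ligands and partners of the receptors lay on both sides of control. Of 18 measured, 11 were higher than control with *R. flavefaciens* and 10 with both treatments, with a median log2 fold change of 0.04 in both, and 0 were called. At an unadjusted p under 0.05, 3 were higher and 2 lower for *R. flavefaciens*, and 2 higher and 1 lower for the combined treatment. Of all genes, 8.86 and 8.08 percent were higher and 10.8 and 8.73 percent lower. *Csf1* and *Il34*, the ligands of Csf1r, had log2 fold changes of 0.11 and 0.02 for *R. flavefaciens* and -0.07 and -0.14 for the combined treatment. *Cx3cl1*, which encodes fractalkine, had -0.03 and -0.16 (limma adjusted p = 0.857 and 0.296). *Tyrobp*, the adaptor of Trem2, had 0.34 and 0.25 (standard error 0.16 for both, limma adjusted p = 0.243 and 0.437). *Apoe*, a lipoprotein bound by Trem2, had 0.29 and 0.13 (limma adjusted p = 0.106 and 0.499), and *Inpp5d*, a phosphatase that damps Trem2 signals, -0.01 and 0.24 (limma adjusted p = 0.974 and 0.165).

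Beyond C1q, genes of the complement pathway lay on both sides of control. Of 15 measured genes, 9 were higher than control with *R. flavefaciens* and 6 with both treatments, with median log2 fold changes of 0.06 and -0.04, and 0 were called. At an unadjusted p under 0.05, 1 and 2 were higher (8.86 and 8.08 percent of all genes) and 0 lower. *C1ra*, a protease that acts with C1q, had 0.06 and 0.003 (standard error 0.23 for both). *Cd59a*, an inhibitor of the membrane attack complex, had the smallest p-values of the list, with 0.21 and 0.32 (standard error 0.082 for both, limma adjusted p = 0.159 and 0.0906). The most abundant gene was *Calr*, a chaperone that also binds C1q, with 0.03 and -0.14.

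Of 32 listed genes that microglia switch on when activated, 20 were measured. Of these, 16 were higher than control in each of the groups given the bacterium (50.8 and 50.2 percent of all genes), and 0 were called. Median log2 fold changes were 0.15 for *R. flavefaciens* and 0.12 for the combined treatment. At an unadjusted p under 0.05, 6 and 1 genes were higher (8.86 and 8.08 percent of all genes). *Ctsd*, a lysosomal protease, had 0.16 and 0.05 (limma adjusted p = 0.118 and 0.691). *Nfkbia*, an inhibitor and target of NF-kB, had 0.12 and 0.57 (standard error 0.16 for both, limma adjusted p = 0.728 and 0.114). *Fth1*, the ferritin heavy chain and the most abundant of the list, had 0.21 and 0.11 (limma adjusted p = 0.214 and 0.548). The listed markers *Cst7*, *Itgax*, *Clec7a*, *Il1b* and *Tnf* were not among the genes of the table. From which cells the counts of the measured genes came was not tested.

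**Figure D5:**
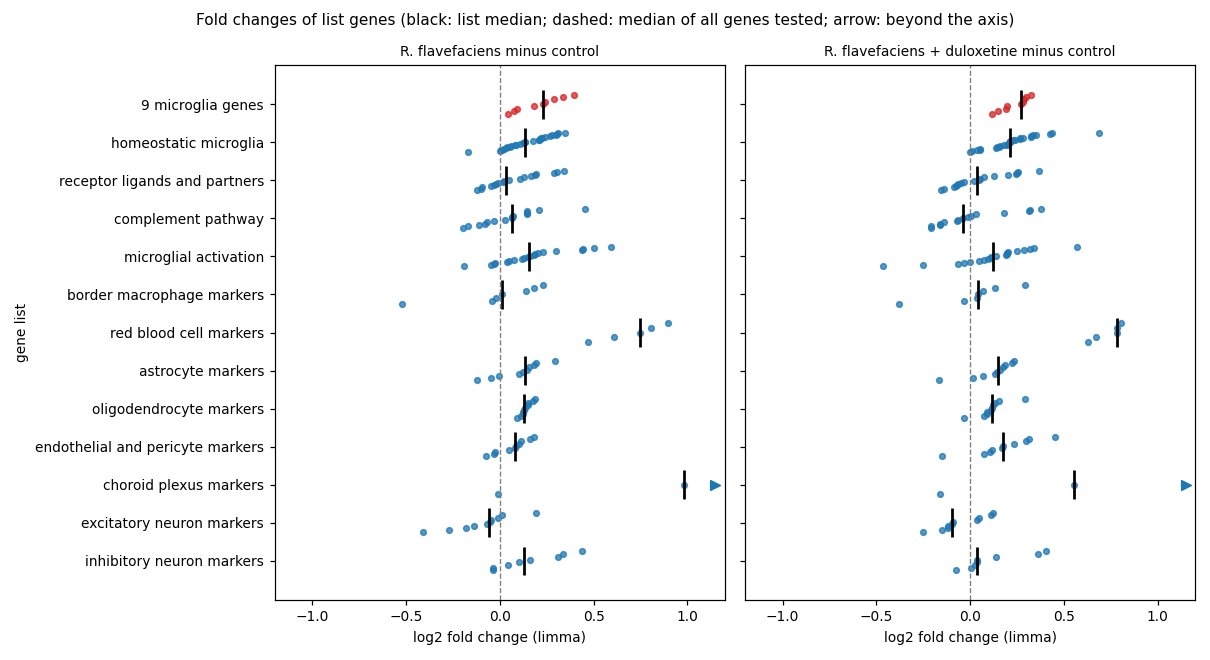
Log2 fold changes of single list genes (points) for *R. flavefaciens* (left) and for the combined treatment (right) against control, by gene list (rows). Red points are the 9 microglia genes, black bars list medians, the dashed line the median of all genes tested, and arrows mark *Ttr*, which lies beyond the axis. The medians of the 9 genes are 0.23 and 0.27, and those of the red blood cell markers 0.75 and 0.78.

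Markers of other cells were set beside these differences. For 7 measured markers of border macrophages the median log2 fold changes were 0.01 and 0.04, and their sum was 340 ± 71.4 normalized counts in the control and 359 ± 35.1 in the combined group (SD, n = 6), with *Stab1* the most abundant. Astrocyte markers had medians of 0.14 and 0.15, oligodendrocyte markers 0.13 and 0.12, endothelial and pericyte markers 0.08 and 0.17, inhibitory neuron markers 0.13 and 0.04 and excitatory neuron markers -0.06 and -0.10, with 0 genes called in any of these lists. At an unadjusted p under 0.05, 3 and 4 of 10 astrocyte, 0 and 4 of 10 endothelial and pericyte and 4 and 2 of 8 inhibitory neuron markers were higher, as were 1 and 0 of 10 excitatory neuron markers, of which 2 and 1 were lower, and 0 oligodendrocyte and border macrophage markers passed. Of all genes, 8.86 and 8.08 percent were higher and 10.8 and 8.73 percent lower. Of the inhibitory neuron markers, *Sst* had log2 fold changes of 0.34 and 0.14 (limma, adjusted p = 0.0727 and 0.422), *Npy* 0.31 and 0.40 (limma, adjusted p = 0.0929 and 0.0624) and *Gad1*, the most abundant, 0.04 and 0.004. Of the excitatory neuron markers, *Fezf2*, of deep-layer neurons, had -0.27 and -0.25 (limma, adjusted p = 0.112 and 0.183) and *Camk2a*, the most abundant, 0.01 and 0.11. Astrocyte markers lay on both sides of control for *R. flavefaciens*, with 7 of 10 higher, and 9 of 10 were higher for the combined treatment. *S100b* had 0.30 and 0.23 (limma, adjusted p = 0.0930 and 0.211), and *Slc1a2*, the glutamate transporter and the most abundant of the list, -0.12 and 0.14 (limma, adjusted p = 0.452 and 0.412). *Mbp*, the most abundant oligodendrocyte marker, had 0.18 and 0.07, *Olig1* 0.11 and 0.09 and *Olig2* 0.12 and 0.29. *Rgs5*, a pericyte gene, had 0.05 and 0.30 (limma, adjusted p = 0.793 and 0.118), and *Cldn5*, of endothelial tight junctions, 0.18 and -0.15. *Siglec1*, of border macrophages, had -0.52 and -0.38 (limma, adjusted p = 0.391 and 0.569). With duloxetine alone, 9 of 10 astrocyte, 10 of 10 oligodendrocyte and 8 of 10 endothelial and pericyte markers were higher than control. Their median log2 fold changes were 0.04, 0.10 and 0.12. Of the excitatory neuron markers 4 of 10 were higher, of the inhibitory ones 3 of 8 and of the border macrophage markers 4 of 7. In these lists 0 genes were called.

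Red blood cell markers differed more. All 5 were higher than control in each treated group, with median log2 fold changes of 0.30 for duloxetine, 0.75 for *R. flavefaciens* and 0.78 for the combined treatment, and 0 were called. At an unadjusted p under 0.05, 0, 4 and 5 of them were higher (2.2, 8.86 and 8.08 percent of all genes). Their sum was 349 ± 65.7 normalized counts in control mice, 462 ± 265 with duloxetine, 598 ± 204 with *R. flavefaciens* and 633 ± 351 with both (SD, n = 6 for each). With duloxetine the mean rested on mouse 6_3, with 984, since the other mice had 289 to 482 and the group median was 354, against 350.1 in control mice. *Hbb-bs*, the most abundant, shares much of its sequence with *Hbb-bt*, as do the alpha globin genes with each other, so single values are uncertain. *Alas2*, of heme synthesis in red cell precursors, had 0.47 and 0.78 (limma, adjusted p = 0.418 and 0.219) in the groups given the bacterium.

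For 3 measured choroid plexus markers the median log2 fold changes were 0.98 and 0.55, and 0 were called. *Ttr*, which encodes the thyroid hormone carrier transthyretin, reached at most 3.08 normalized counts in control mice, where it was listed at 0 in 2. Above that were 5 of 6 *R. flavefaciens* mice, up to 657 in mouse 8_4, 4 of 6 combined mice, up to 62.0, and 5 of 6 duloxetine mice, up to 68.6. Its log2 fold changes of 3.34 and 2.71 (standard error 1.1 for both, limma adjusted p = 0.107 and 0.224) depend on the 1 added before the log. *Kl*, the most abundant of the list, had -0.01 and -0.16. *R. flavefaciens* mouse 8_4 also had the highest sum of red blood cell markers of its group. The part of blood, choroid plexus and the dissected area in the differences of the microglia genes was not tested.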

How the data were processed

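Poly(A) RNA of the mPFC was sequenced from 24 mice. The authors' processing notes name TopHat2 2.1.0, Bowtie2 2.2.6 and DESeq2 1.18.1. They name mm9, but the methods name GRCm38.p5, and the positions in the table are those of GRCm38. The deposited signal values are gene counts that the authors divided by 1 size factor per mouse. Each mouse's values were checked to be whole multiples of 1 step within 0.0051 (at least 99.8 percent of values per mouse), and dividing by it gave the reads used for depth, DESeq2 and edgeR. No column was left out.

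Log2(value + 1) of 14974 genes with a mean of at least 10 was fitted with limma 3.58.1 in R 4.3.3 (trended prior, 4 groups in 1 fit, two-sided, Benjamini-Hochberg over all genes tested, threshold 0.05) for 8 comparisons. Fold changes are on this scale, which understates changes of low genes. Each of the 9 genes was also tested by exact permutation, unadjusted, and pairs of genes by 100000 permutations within groups. Exon lengths came from GENCODE vM21 and promoters from RefSeq on GRCm38.p6. DESeq2 1.42.0, edgeR 4.0.16, Python 3.11.15, numpy 2.4.6, pandas 2.3.3, scipy 1.17.1 and matplotlib 3.10.9 were used, and the limma fit was tested on simulated data.

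The 9 genes, the 13 other gene lists and the tests were chosen with earlier results of these data known. Genes named from a list are those past the threshold (at most 4), the most abundant one and those with the smallest p-value for *R. flavefaciens* and for the combined treatment against control, with the 10 genes most like the 9 and the nearest gene of each. A gene that this rule names is not reported here. Ligands, *Tyrobp*, *Spi1*, *C1ra* and genes sharing exon bases were named for their roles. The fit was repeated with each of these changes: 0.1 added before the log, every gene kept or a mean of at least 50 required, each comparison fitted on its own groups, values rescaled to the 75th percentile or quantile normalized, DESeq2 or edgeR on recovered reads, mice sharing the first number of their label as a random block, the trend on exon length taken off by loess (span 0.3), a threshold of 0.1, and each mouse left out. *Ptprc* was run under them after seeing the data.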

Additional observations from a re-analysis of the deposited data

Results flagged for a closer look

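For each gene or summed list, a mouse was singled out where its gap to the nearest of the 6 mice of its group took more of the range of the group than Dixon's 95 percent critical value allows. Chance singles out about 1 in 20 groups. In the 36 groups of the 9 microglia genes, 0 mice were singled out, and in 172 groups of list sums, other named genes and depth, 17 were.

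*R. flavefaciens* mouse 8_4 stood apart with 791 normalized counts of summed choroid plexus markers, 657 of *Ttr*, 988 of summed red blood cell markers, 602 of *Hbb-bs* and 103 of *Hbb-bt*. Duloxetine mouse 6_3 stood apart with 984 normalized counts of summed red blood cell markers, 592 of *Hbb-bs*, 95.4 of *Hbb-bt* and 50.1 of *Ly6c2*, and duloxetine mouse 5_3 with 152 of summed choroid plexus markers and 68.6 of *Ttr*. Control mouse 2_2 had the highest sum of border macrophage markers, 478 normalized counts, and the lowest *Sst*, 1666. *R. flavefaciens* mouse 9_3, the highest of its group for 7 of the 9 microglia genes, also stood apart for *Ctsd* with 2741 normalized counts. *R. flavefaciens* mouse 9_1 had 59272 normalized counts of *Camk2a*, duloxetine mouse 6_1 had 589 of *Npy*, and control mouse 2_1 had 14446451 reads, more than any other control mouse. The part of these mice in the differences of the microglia genes between groups was not tested beyond leaving out each mouse.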

How the results depend on the processing

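With limma and the settings of the report, 0 of the 9 genes were called in any comparison. For *R. flavefaciens* against control, 2 genes were called at an adjusted p under 0.1 (579 of all genes), with the random block (221) and by DESeq2 (488), and for the combined treatment 1 was called by DESeq2. For *R. flavefaciens* averaged over duloxetine, 1 was called at an adjusted p under 0.1 (201 of all genes) and 1 by DESeq2. Leaving out 1 mouse gave 0 to 3 called genes for *R. flavefaciens* and 0 to 2 for the combined treatment against control, and 0 in the other 6 comparisons. Of 2421 recomputed fold changes of single genes, 13 came past the threshold, and of the others 0 moved by more than the SD between mice of that gene. Leaving out 1 of 6 mice can move a fold change by only part of that SD. For those fits this outcome was thus fixed in advance and says nothing on stability. The median log2 fold change of the 9 genes ranged, over the mice left out, from 0.15 to 0.23 for duloxetine, from 0.17 to 0.26 for *R. flavefaciens* and from 0.19 to 0.34 for the combined treatment. It ranged from 0.03 to 0.15 for adding the bacterium to duloxetine, from -0.20 to -0.05 for the interaction, and from 0.05 (without *R. flavefaciens* mouse 9_2) to 0.11 (without combined mouse 12_4) for duloxetine averaged over the bacterium, where all mice gave 0.09, -0.11 and 0.07. Removing the trend on exon length lowered it to 0.16, 0.16 and 0.21 for the 3 comparisons with control, the lowest of the other settings. The sign of the median changed only for adding duloxetine to the bacterium, from 0.02 to -0.04 without combined mouse 12_2, and was 0.08 without 12_4. Over all genes, limma called 4, 15, 334, 4 and 154 genes for *R. flavefaciens* and the combined treatment against control, for adding duloxetine to the bacterium, for *R. flavefaciens* averaged and for duloxetine averaged, where DESeq2 called 488, 217, 624, 441 and 321 and edgeR 4, 17, 327, 4 and 140. Leaving out 1 mouse, limma called 0 to 616, 5 to 154, 47 to 577, 1 to 135 and 46 to 260 genes in these comparisons, the lowest without any 1 of 9_3 of the *R. flavefaciens* group and 2_3, 2_2 and 1_1 of the control group (0 in each), any 1 of control mice 2_1 and 3_1 and combined mouse 10_2 (5 in each), combined mouse 11_3, duloxetine mouse 5_4 and control mouse 3_1, and the highest without *R. flavefaciens* mouse 9_2, combined mouse 12_4, *R. flavefaciens* mice 8_4 and 8_3 and combined mouse 12_4. A fit of only the groups compared called 0, 196 and 0 in the first 3, the random block 221, 59, 533, 4 and 255, and the fit with the length trend removed 2, 71, 228, 7 and 160. For the combined treatment against control a minimum mean of 50 gave 30 and the 75th percentile 24, and for *R. flavefaciens* averaged quantile normalization gave 2. The cause was not tested. Of the 10 genes most like the 9, Spearman's rho kept 5, quantile normalization 7 and leaving out a mouse 6 to 10. The correlation of mice that share the first label number was -0.045. No paired analysis was possible because the labels give no replicate number that groups share. A fit of only the groups compared gives no value for the interaction and the averages. Precision is limited by 6 mice per group, and the part of depth was not tested.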
